A study of Mus musculus with 6 samples.

Results

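The regions described here are those of the deposited lists that overlap either of 2 windows of the mouse genome (build mm9), chrX:65930000-65972000, assigned to Fmr1, and chr8:3620000-3628000, assigned to Pcp2. Of the 12969 regions in both lists, 7 did so, 6 at Fmr1 and 1 at Pcp2. The loci were chosen from the position and the score of these same regions in an earlier pass over the lists, so position, width, score and list are given as a description, with no test. The study compared 5-hydroxymethylcytosine (5hmC) in the cerebellum of 6 C57BL/6 mice aged 16 weeks, 3 wildtype littermates and 3 animals titled rCGG whose genotype is given as FXTAS. FXTAS, fragile X-associated tremor/ataxia syndrome, is a neurodegenerative disease of later life caused by a lengthened CGG repeat in FMR1. The labels name neither the construct or allele that carries the repeat, nor the promoter that drives it, nor the sex of the animals, which leaves the number of X chromosomes per animal unknown. The authors' 2 lists, of wildtype-specific and of rCGG-specific regions, hold no value per animal. Spread between animals and depth per library are therefore unknown, and no call can be checked against replicates.

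5hmC arises when TET enzymes oxidise 5-methylcytosine, mostly at CpG dinucleotides, and it is abundant in neurons, where it marks the bodies of many active genes. Fmr1 encodes FMRP, an RNA-binding protein that regulates translation at synapses. In humans the CGG repeat lies in the 5′ untranslated part of FMR1. Carriers of a lengthened repeat accumulate repeat-containing RNA, and Purkinje cells, the output neurons of the cerebellar cortex, are among the cells affected. Pcp2, also named L7, encodes Purkinje cell protein 2, a modulator of G protein signalling that is made in Purkinje cells and in retinal bipolar cells. Its promoter is widely used to drive transgenes in Purkinje cells, including constructs with expanded CGG repeats. Whether the rCGG animals carry Pcp2 or Fmr1 sequence in a transgene is not given in the sources used here.

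Both genes had an entry in the RefSeq promoter table (GRCm38.p6), so 2 of 2 matched. The 250 bases before the most upstream start site of each are shown because the genes differ in the number of CpGs next to their starts. CpGs are the sites at which 5hmC mostly arises, where they are methylated. CpGs are in capitals, and each sequence is on the strand of its gene, 5′ to 3′, with positions in GRCm38.p6 that were not converted to mm9.
Fmr1, chrX:68678291-68678540, plus strand: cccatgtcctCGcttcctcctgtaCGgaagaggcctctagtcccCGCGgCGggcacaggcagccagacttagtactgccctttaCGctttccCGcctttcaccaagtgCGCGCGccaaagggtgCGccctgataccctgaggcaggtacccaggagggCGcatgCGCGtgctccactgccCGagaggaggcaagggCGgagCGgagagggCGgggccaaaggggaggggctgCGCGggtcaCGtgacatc
Pcp2, chr8:3625548-3625797, minus strand: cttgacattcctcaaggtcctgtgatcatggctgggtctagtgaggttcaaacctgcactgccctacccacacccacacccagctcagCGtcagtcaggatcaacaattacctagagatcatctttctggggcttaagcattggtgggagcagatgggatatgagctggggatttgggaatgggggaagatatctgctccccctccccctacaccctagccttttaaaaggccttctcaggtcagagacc

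The Fmr1 sequence held 21 CpGs with a GC content of 67.2%, and its ratio of observed to expected CpGs was 0.745. The Pcp2 sequence held 1 CpG with a GC content of 52.8% and a ratio of 0.0576. The median over all 32851 start sites of 27025 genes in the table was 6 CpGs. A total of 16.3% of them had at least as many CpGs as Fmr1, and 7.87% had fewer than Pcp2. The letters CGGCGG, a pair of the triplets that expand in FXTAS, were found once before Fmr1 and not before Pcp2 when both strands were searched. They occur in 14.4% of all such sequences and contain CpGs themselves. The search covered only bases before the start site, so it did not reach the 5′ untranslated part, where the repeat lies in humans. No mm9 annotation was used here, so it was not established whether either promoter lies inside a listed region.

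At Pcp2, 1 region specific to rCGG was listed, at chr8:3623305-3626400. It was 3096 bp wide and had a score of 1868.47, the highest of the 4311 in its list. It began 3.31 kb after the start of the window and ended 1.60 kb before its end, so the region lay wholly inside. RefSeq gives Pcp2 a length of 2.18 kb in GRCm38.p6, and the listed region was 1.42 times as long. No wildtype-specific region overlapped the window.

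At Fmr1, 6 regions specific to rCGG were listed and 0 specific to wildtype. They spanned 20.9 kb, from 65948186 to 65969077, and covered 3388 bp, which is 16.2% of that span and 8.07% of the window. All 7 regions of both loci were thus rCGG-specific, where 33.2% of all regions, 29.5% of those on chromosome X and 37.3% of those on chromosome 8 were. The loci were chosen with these lists known, so nothing is read from the difference.

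The 6 Fmr1 regions fell into 2 groups of 3. In order along the chromosome, the first lay at chrX:65948186-65948956, with a width of 771 bp and a score of 235.59. The second lay at chrX:65950690-65951276, with 587 bp and a score of 121.31, and the third at chrX:65953080-65953724, with 645 bp and a score of 78.92. The score thus fell along this group, which spanned 5539 bp and had gaps of 1733 and 1803 bp.

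The other group began 11495 bp further on. Its regions lay at chrX:65965220-65965727, with 508 bp and a score of 83.33, at chrX:65966260-65966640, with 381 bp and a score of 61.99, and at chrX:65968582-65969077, with 496 bp and a score of 96.36. This group spanned 3858 bp, with gaps of 532 and 1941 bp. All of its regions were narrower than those of the first group, and it covered 1385 bp against 2003 bp. Its scores overlapped those of the first group, since the lowest score there, 78.92, was below 83.33 and 96.36.

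**Figure D1:**
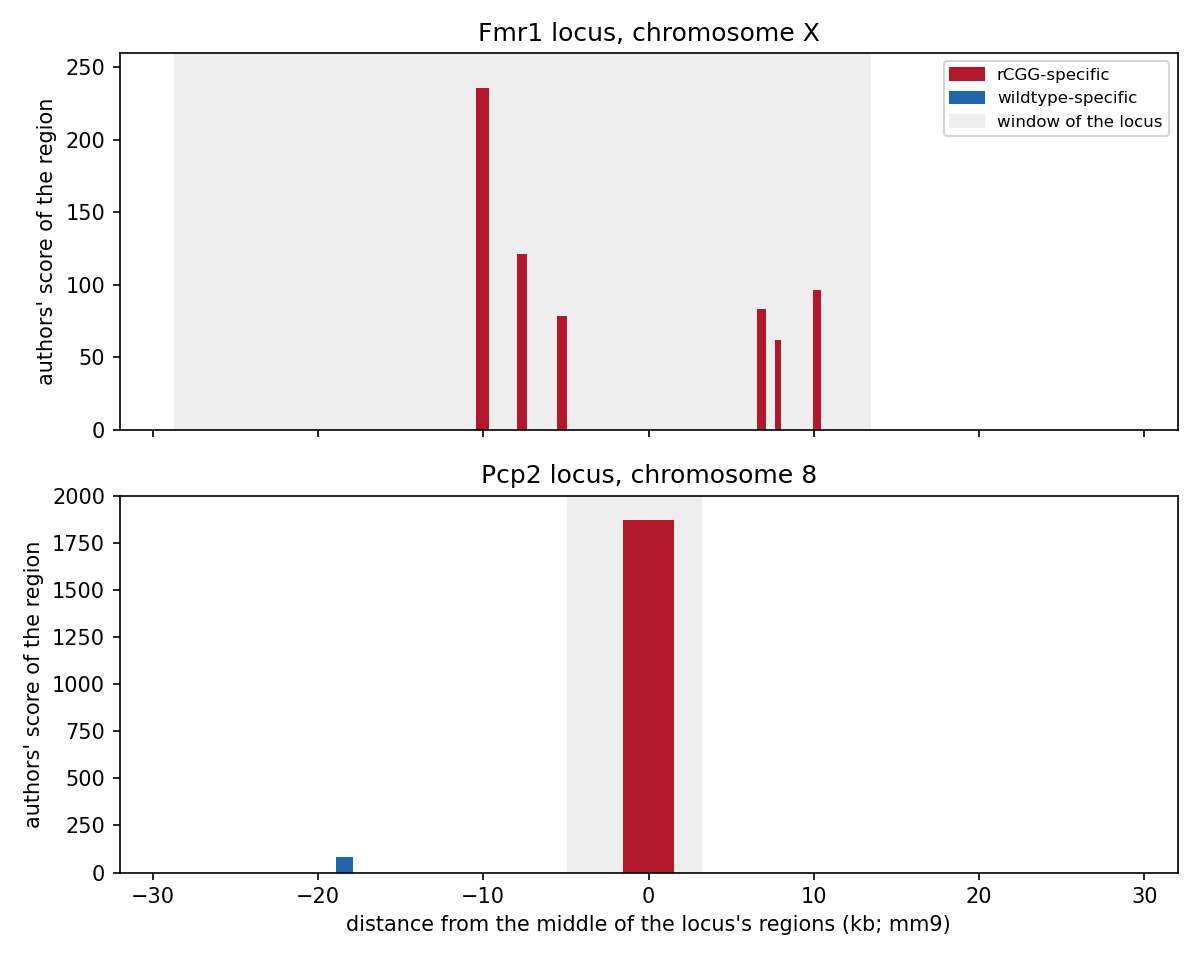
Listed regions around Fmr1 (top) and Pcp2 (bottom), drawn to scale against the distance in kb from the middle of the rCGG-specific regions of each locus. Bar height is the authors' score on a linear axis that differs between the panels, and the grey band is the window that defined the locus. Fmr1 shows 6 separate narrow regions in 2 groups of 3, and Pcp2 shows 1 region of 3096 bp with a wildtype-specific region 16.3 kb before it.

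The regions at Fmr1 were placed unevenly in the window. Its first 18.2 kb held no listed region, and its last region ended 2.92 kb before the end. RefSeq gives Fmr1 a length of 39.4 kb in GRCm38.p6, on the plus strand. A gene of that length contained in the window would start within the first 2.57 kb, so the first listed region would lie at least 15.6 kb after its start. That reading assumes that the gene lies wholly in the window, with the same length and strand in mm9, which was not checked. Under it, no listed region would overlap the CpG-rich Fmr1 promoter printed above. Which exons or introns the 6 regions overlap was not determined here.

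In width, the loci lay on opposite sides of the median of the rCGG-specific list, 853 bp over 4311 regions. All 6 Fmr1 regions were narrower than that median, the widest of them by little, since 35.1% of the list was narrower still. Their own median was 548 bp, and 2 of them were among the 111 regions (2.57%) under 500 bp. The narrowest, with 381 bp, ranked 4307th of 4311 by width. The Pcp2 region ranked 56th, and 1.30% of the list was at least as wide.

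In score, all 6 Fmr1 regions lay above the list's median of 59.35, and 2 of the 6 reached 100, as 3.62% of the list did. Their ranks by score in the list were, in order along the chromosome, 2, 47, 569, 404, 1789 and 187. The Pcp2 region ranked first. The score rises little with width in this list, with a Spearman rho of 0.19 across the 4311 regions, which share their libraries and the caller's settings.

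The scores were also set beside those of regions of like width. The 55 other regions at least as wide as that at Pcp2 had scores from 50.13 to 141.84, with a median of 67.85. The 1518 other regions no wider than the widest at Fmr1 had scores from 50.01 to 148.96, with a median of 57.16, and 1.45% of them reached 100. The first Fmr1 region, at 235.59, lay above all of these, and the second, at 121.31, ranked 5th when the members were counted in. The 216 other regions no wider than the median of the Fmr1 regions had scores up to 105.25, with a median of 55.51, and 1 of them (0.463%) reached 100. The 3 narrowest Fmr1 regions, with 61.99, 83.33 and 96.36, lay within that range and above that median. No source used here gives a scale for the score, so these values give an order and no size of a 5hmC difference.

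**Figure D2:**
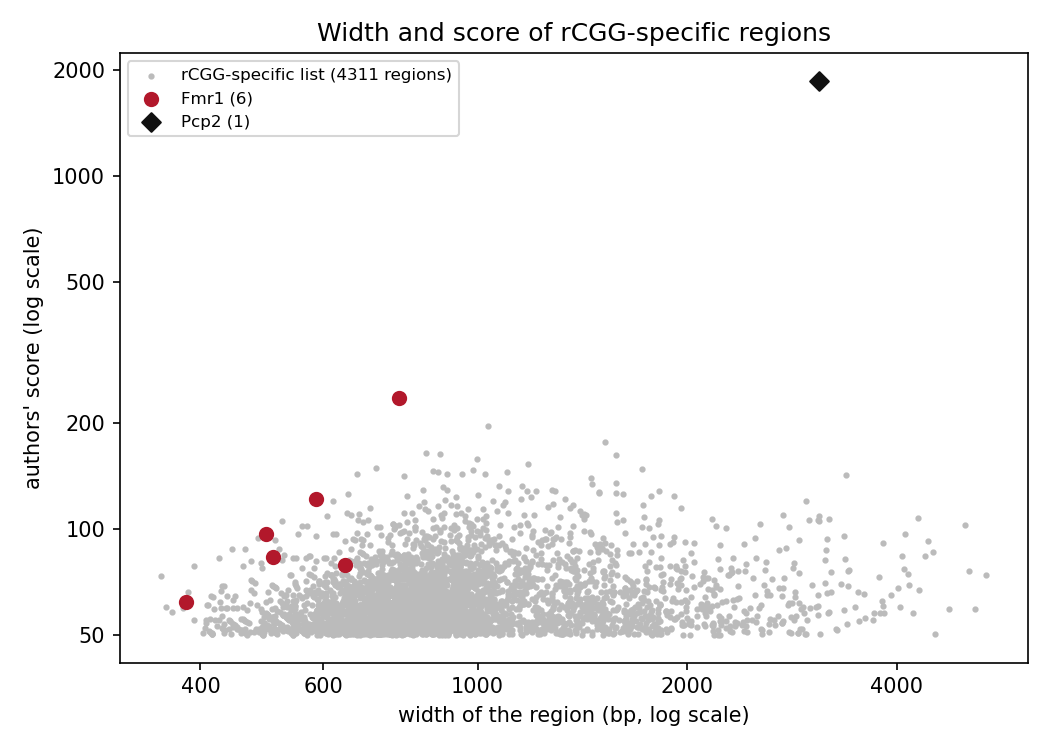
Width in bp and authors' score of the 4311 rCGG-specific regions, both on log axes, with the 6 Fmr1 regions (circles) and the Pcp2 region (diamond) marked. The Pcp2 region stands far above regions of its width, whose scores reached 141.84. The Fmr1 regions, from 381 to 771 bp, have scores from 61.99 to 235.59, where the other regions no wider than 771 bp reach 148.96.

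The spacing of the Fmr1 regions was compared with that of the whole rCGG-specific list as a description. Most of that list stood alone: 3904 regions (90.6%) had no rCGG-specific neighbour within 10 kb uninterrupted by a wildtype-specific region. The list held 185 runs of 2 such neighbours, 11 runs of 3 and 1 run of 4, and no longer run. The 2 Fmr1 groups were 2 of the 11 runs of 3. The run of 4 lay on chromosome 5 at 30083775-30090935, with scores from 50.19 to 60.20.

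The Fmr1 groups had shorter spans and smaller median widths than the other 9 runs of 3. Their regions had median widths of 645 and 496 bp, while those of the other 9 had medians from 779 to 1511 bp. Spans were 5.54 and 3.86 kb at Fmr1 and 6.24 to 16.3 kb in the other 9. Single regions overlapped in width, since those of the other 9 went down to 573 bp and those at Fmr1 up to 771 bp. The covered share of the span was 36.2% and 35.9% at Fmr1, within the 18.9 to 62.1% of the other 9. The run of 4 on chromosome 5 was much like the Fmr1 groups in spacing, with a largest gap of 1818 bp against 1803 and 1941 bp. It covered 37.7% of its span. The highest score in the first Fmr1 group, 235.59, exceeded the highest in any other run of 3, 144.61, in the run on chromosome 10 at 85350503-85362359. The second group, with a highest score of 96.36, ranked below that run and below a run on chromosome 8 at 85587650-85603959, which reached 117.93.

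Windows as long as that of Fmr1 (42.0 kb) were laid from the start of each of the 4311 rCGG-specific regions. Of these, 3648 (84.6%) held that region alone. The highest number was 6, reached by 1 window, which starts at the first Fmr1 region. The next highest, 5, was in the window that starts at the second Fmr1 region. A further 7 windows held 4, and 1 of these starts at the third Fmr1 region. The windows that start at Fmr1 overlap and count some of the same regions.

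**Figure D3:**
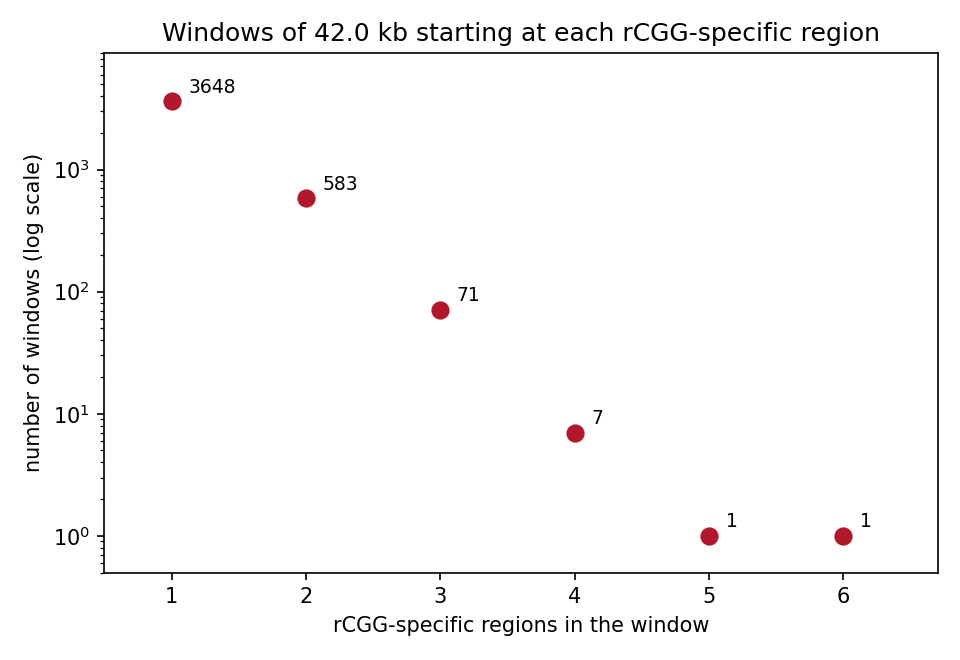
Number of windows of 42.0 kb, on a log axis, by the number of rCGG-specific regions that lie in them; 1 window starts at each of the 4311 regions. The windows with 5 and 6 regions both start at Fmr1, and 3648 windows hold 1 region.

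Away from Fmr1, the X chromosome was sparse in both lists. Outside the window it held 17 rCGG-specific regions, 0.107 per Mb, and 55 wildtype-specific regions, 0.345 per Mb. The window itself held 143 rCGG-specific regions per Mb. It is short and was chosen with these regions known, so nothing is read from that contrast. The Pcp2 window, with 1 region, came to 125 per Mb. Fmr1 held 26.1% of the rCGG-specific regions on the X chromosome and 20.0% of the base pairs they cover. The 17 regions elsewhere had scores from 50.16 to 97.09 with a median of 55.76, and none reached 100. They were wider than those at Fmr1, with a median of 818 bp and a range of 467 to 1292 bp, so the ranges overlap. The smallest gap between rCGG-specific regions on X outside the locus was 195 kb, against a largest gap of 11495 bp within it.

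The Fmr1 regions were far from any other listed region. The window's edges set what counted as a member, and they lay in empty sequence. The nearest region was rCGG-specific, 2431 kb after the last member, at chrX:68399999-68400990, with 992 bp and a score of 70.40. The next rCGG-specific region after it lay 4.84 Mb away at chrX:70811288-70812579, with 1292 bp and a score of 56.14. Before the locus, the nearest were wildtype-specific, 16.6 Mb away at chrX:49352033-49352559, with a score of 62.38, and 16.9 Mb away at chrX:49035176-49035696, with 69.56. The nearest rCGG-specific regions on that side lay 17.1 Mb away at chrX:48852946-48853485, with a score of 52.04, and 46.2 Mb away at chrX:19734313-19734779, with 54.31. The nearest wildtype-specific regions after the locus were 4.93 and 5.66 Mb away, at chrX:70901963-70903046 and chrX:71632667-71633135, with scores of 50.80 and 63.43.

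These empty stretches were long for the chromosome. The median gap between successive regions of either list on X, outside the locus, was 174 kb over 70 gaps. The empty stretch before Fmr1 exceeded 95.7% of them, and the one after it exceeded 82.9%. The members therefore formed no part of a wider stretch of listed regions.

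Chromosome 8 was more densely listed, and the Pcp2 region had a neighbour of the other list. It held 244 other rCGG-specific regions, 1.91 per Mb outside the window, with a median width of 862 bp and scores from 50.03 to 143.05. The Pcp2 region made up 0.408% of the rCGG-specific regions on the chromosome and 1.25% of their base pairs. The nearest listed region was wildtype-specific, 16.3 kb before it at chr8:3605915-3606976, with 1062 bp and a score of 82.96. Another wildtype-specific region, at chr8:3521217-3521803, lay 102 kb before it, with a score of 66.76. After it, the nearest were wildtype-specific regions 579 and 587 kb away, at chr8:4204951-4206958 and chr8:4213563-4215379, with scores of 96.14 and 86.79.

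The nearest rCGG-specific regions were farther off than the nearest wildtype-specific ones on both sides. The only one before Pcp2 on the chromosome lay 377 kb away at chr8:3245695-3246410, with 716 bp and a score of 62.83. After it, such regions lay 684 kb away at chr8:4310891-4312245, with a score of 51.42, and 1.24 Mb away at chr8:4868852-4869534, with 50.42. The median gap between successive regions of either list on the chromosome was 81.6 kb. The empty stretch after Pcp2, 579 kb, exceeded 95.3% of the 653 gaps, while the one before it exceeded 16.2%. In the GRCm38.p6 gene table the protein-coding neighbours of Pcp2 are Pet100 and Stxbp2, and Fmr1 is followed by Fmr1nb. None of the neighbouring regions was assigned to a gene, for want of an mm9 annotation.

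**Figure D4:**
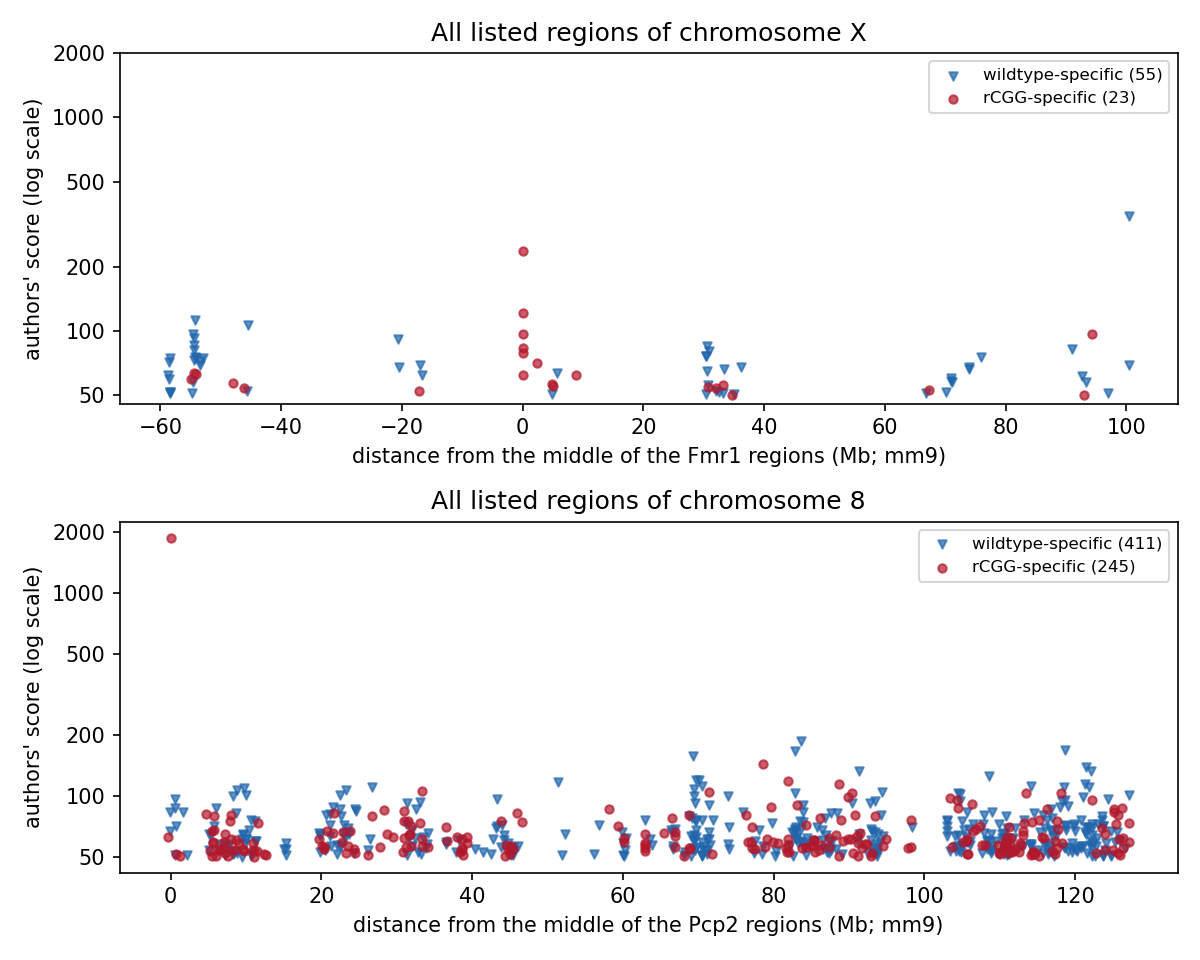
Authors' score, on a log axis, of all listed regions on chromosome X (top) and chromosome 8 (bottom) against the distance in Mb from the middle of the Fmr1 and Pcp2 regions. Scores of the 2 lists are not compared; within the rCGG-specific list (circles) the Fmr1 regions reach 235.59 where others on X reach 97.09, and the Pcp2 region has 1868.47 where others on chromosome 8 reach 143.05.

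The 2 best-scored rCGG-specific regions came from these loci, which were chosen with the scores known. The remaining Fmr1 regions ranked from 47 to 1789. The Pcp2 region was followed by the first Fmr1 region, then by regions on chromosome 1 at 122765059-122766092 (score 196.28) and on chromosome 2 at 146327136-146328658 (175.86) and 5733319-5734162 (164.04). These 3 were single regions of 1034, 1523 and 844 bp. The wildtype-specific list also had a few scores far above its median of 62.38, of which the highest 5 ran from 570.46 to 1545.97. They lay on chromosome 2 at 98502246-98503273, 98503646-98504373 and 98506250-98507625 and on chromosome 9 at 3035553-3036907 and 35112387-35113303. Scores far above the median of their own list thus occurred in both lists, whose scores are not compared. Within the rCGG-specific list, the score of 1868.47 at Pcp2 was followed by 235.59. Without the 7 members the rCGG-specific list had a highest score of 196.28 and kept its median of 59.35.

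The lists give captured 5hmC without copy number. A region can be listed as rCGG-specific where each copy of a sequence carries more 5hmC, or where the rCGG animals carry more copies of that sequence, such as parts of a transgene that align to Fmr1 or Pcp2. These cannot be told apart here, since read counts, signal per animal and values of uncaptured input DNA were not analysed here. In whole cerebellum, a change in few cells and a smaller change in many cells cannot be told apart either.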

How the data were processed

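5hmC was measured by chemical labelling and capture in the cerebellum of 3 wildtype and 3 rCGG mice, per the labels' protocols, with single-end reads of 38 cycles and fragments of 150 to 300 bp. Reads were aligned with Bowtie 0.12.9 to mm9 and HOMER was used, per the submitters' processing notes. The authors deposited 2 lists of regions with MACS peak names and a score without header, whose lowest value was 50.00 in both. For the caller's version, settings and control, and for any pooling of animals, nothing is given in the sources used here.

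Coordinates were read as mm9 and are given from 1. Regions that overlap a window were members. Gaps are the bases between region edges, and a run is a series of rCGG-specific regions with gaps of at most 10 kb and no wildtype-specific region between. Densities use the length from the first to the last listed region of a chromosome. The code for runs and merging was tested on simulated regions. Python 3.11.15, numpy 2.4.6, scipy 1.17.1 and matplotlib 3.10.9 were used. The members, windows and rules were chosen with earlier results of these data known. The rule named Fmr1, Pcp2, their members, the 2 nearest regions of each list per side, the 5 best-scored regions per list and the longest runs. It also listed partner and Purkinje cell genes, which were not placed, because no mm9 annotation was used here. The comparisons with regions of like width, the windows of 42.0 kb and the promoter sequences were added after seeing the data. Alternatives were window size, score minimum, merging, run definition, centre distances and ranking by width.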

Additional observations from a re-analysis of the deposited data

How the results depend on the processing

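The number of regions at Fmr1 was 6 with the window widened by 10 or 50 kb per side, 5 at a score of at least 75 and 5 after merging regions closer than 1 kb. It was 2 at a score of at least 100 and 2 after merging regions closer than 10 kb. The number at Pcp2 was 1 with the window widened by 10 kb and at a score of at least 75 or 100, and 2 with the window widened by 50 kb, the second being wildtype-specific; merging was not run there. Runs of at least 6 rCGG-specific regions numbered 0 with gaps of at most 10 or 5 kb and 1 with gaps of at most 20 kb, that at Fmr1; runs of at least 5 numbered 0 and of at least 4 numbered 1. From centre to centre, the nearest region lay 2432 kb from Fmr1 and 18.4 kb from Pcp2. Ranked by width, the Fmr1 regions came 2788th, 3988th, 3715th, 4184th, 4307th and 4205th in order along the chromosome, and the Pcp2 region 56th. No paired analysis was possible because each list is a single outcome for all animals, which also precludes leaving any of them out. Unknown depth and copy number limit every value.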

Other observations

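Wide rCGG-specific regions resembled the Pcp2 region in extent but not in score. Of 229 regions of at least 2000 bp, the best-scored after Pcp2 was 3382 bp wide, on chromosome 1 at 54031495-54034876, with a score of 141.84. It was followed by a region of 2959 bp on chromosome 2 at 104200688-104203646, with 119.73, and by one of 2743 bp on chromosome 10 at 111318096-111320838, with 109.57. Outside Fmr1, the windows of 42.0 kb with most rCGG-specific regions held 4. One of them starts on chromosome 2 at 68093143 and another on chromosome 4 at 9226710. These regions were picked after their values were seen and were not assigned to genes.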
